A study of Mus musculus with 8 samples.

Results

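Injury-activated satellite cells were compared with satellite cells isolated from uninjured mice perfused with PBS, across all genes that were measurable in this pair of groups. Members were the gene symbols with at least 1 FPKM (fragments per kilobase of transcript, scaled to the mapped fragments of the library) in at least 2 of the 4 libraries compared. They were 11339 of the 24328 symbols in the deposited table, or 46.6%. All mice were C57BL/6 of 2 months. The 2 injury-activated libraries came from unperfused mice with a wild type genotype label, 2.5 days after an injury whose kind the labels do not name. The 2 PBS-perfused libraries came from uninjured mice labelled Pax7-nGFP, whose cells were isolated without fixation. The series also held 2 libraries from unperfused, uninjured wild type mice and 2 from PFA-perfused Pax7-nGFP mice, in which tissue was fixed before isolation. According to the labels, the sort kept Vcam+ cells and gated out those with CD31, CD45 or Sca-1 on their surface, and poly(A) RNA was amplified with SMART-Seq v4. Injury, genotype label and perfusion changed together between the injury-activated and PBS-perfused groups, so their parts in any difference cannot be told apart from this comparison alone. The labels do not say how many mice went into a library or whether replicates came from different mice. The p-values therefore rest on a spread between libraries that may be technical.

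Satellite cells are the stem cells of skeletal muscle. They lie between the muscle fibre and its basement membrane, are mostly out of the cell cycle in uninjured adult muscle, and carry the paired-box factor Pax7. After injury they enter the cycle as myoblasts under Myf5 and Myod1, and later express Myog as they begin to differentiate and fuse into fibres. Taking muscle apart with enzymes also induces immediate early and stress genes in these cells, which fixation before isolation is meant to limit. The deposited values hold no counts, so sequencing depth is unknown and no counting error can be given.

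The 2 injury-activated libraries resembled each other more closely than the other pairs did. Their median absolute log2 difference over the tested genes was 0.082, against 0.295 in the PBS-perfused pair and 0.225 to 0.266 in the other pairs. Treated as 1 library, they still gave 7176 member calls in place of 8662. The nuclear noncoding RNA Malat1 took 0.0665% and 0.0796% of all FPKM in the injury-activated libraries, against 6.71% and 7.38% in the PBS-perfused libraries. The ribosomal RNA precursor Rn45s took 0.893% of PBS-perfused library 1 and 6.64% of PBS-perfused library 2, so that pair differed in its Rn45s share. The libraries were made from poly(A) RNA, so this share is not read as the precursor content of the cells. Rn45s itself fell by 2.74 ± 0.82 on the log2 scale (adjusted p = 0.0135), and without PBS-perfused library 2 this became -1.26 with an adjusted p of 0.0561.

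Most member genes differed between the groups. With limma on log2(FPKM + 1), fitted to all 8 libraries, and a Benjamini-Hochberg threshold of 0.05 on the adjusted p, 4250 members were higher in injury-activated cells, 4412 were lower and 2677 were not called. The calls were 76.4% of the members, against 73.2% of the 12515 genes tested in the whole series, of which 34.4% were higher and 38.8% lower. Counts in the lists below are to be read beside these shares. Differences beyond 1 on the log2 scale covered 3282 of the higher and 3486 of the lower members, and differences beyond 3 covered 458 and 670. The median member differed by 0.01, with 5% of the members below -3.19 and 5% above 2.79. Scaling by a trimmed mean of ratios moved the median of all tested genes from -0.11 to 0.13 and gave 5078 higher and 3904 lower members, so small differences depend on the scaling. At least 1 FPKM was reached in both injury-activated libraries and neither PBS-perfused library by 752 members, and the reverse held for 1567. These members entered through the group in which they were high, and their calls, 715 higher and 1536 lower, are given as a description. The same holds for such genes where they are counted in the lists below.

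**Figure D1:**
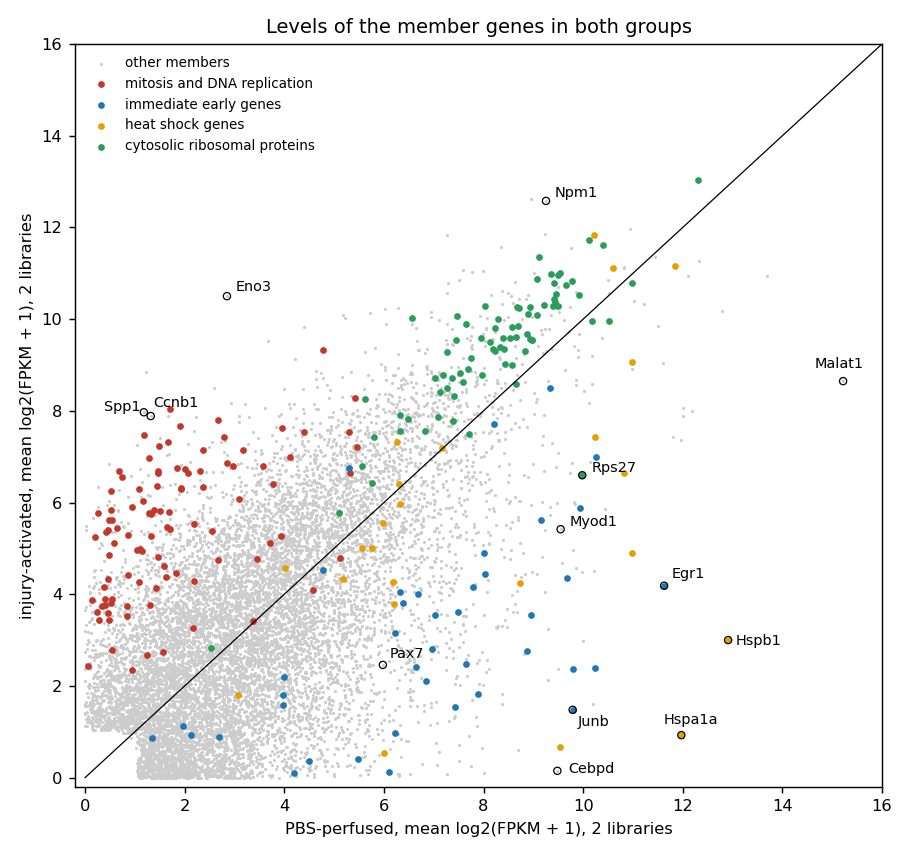
Mean log2(FPKM + 1) of each of the 11339 member genes in PBS-perfused cells (x axis) and injury-activated cells (y axis), 2 libraries each, with the diagonal of equal level. Genes of mitosis and DNA replication (red) mostly lie above the diagonal toward the left edge, immediate early genes (blue) mostly below it, ribosomal protein genes (green) mostly a little above it, and the heat shock genes (orange) Hspa1a and Hspb1 far below it at the lower right.

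The most abundant messages differed in kind. By mean FPKM, injury-activated cells were led by Rplp0 of the ribosomal stalk, Actb (beta-actin), the nucleolar protein gene Npm1, the elongation factor gene Eef1a1 and Nedd4, a ubiquitin ligase. PBS-perfused cells were led by Malat1, Rn45s, the endoplasmic reticulum chaperone gene Hspa5, the small heat shock protein gene Hspb1 and the ubiquitin gene Ubb. Those genes were picked by level after their values were seen. Malat1 stood at 436 and 367 FPKM in the injury-activated libraries and at 35521 and 40899 FPKM in the PBS-perfused libraries. Its level was 6017 and 5368 FPKM in unperfused and 42569.8 and 39963 FPKM in PFA-perfused cells, so the injury-activated libraries were the lowest of the 8. The difference from PBS-perfused cells was -6.57 ± 0.41 (log2 difference ± SE, adjusted p = 1.5e-06). Neat1, the RNA scaffold of nuclear paraspeckles and likewise singled out after its values were seen, fell by 6.55 ± 0.43 on the log2 scale (adjusted p = 1.9e-06).

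Genes of mitosis rose almost as a block. Of 57 listed genes, all of them members, 55 rose, none fell and 2 were not called, with a median log2 difference of 4.36 beside -0.11 over all tested genes. Of these genes, 21 reached 1 FPKM only in the injury-activated libraries. The list took 0.662% and 0.693% of all FPKM in injury-activated cells and 0.036% to 0.0516% in PBS-perfused cells. All 10 entry and checkpoint kinases, all 14 kinetochore genes, all 19 spindle and cytokinesis genes and all 9 genes of chromosome structure rose, with group medians of 4.75, 3.56, 4.76 and 4.31. The 2 genes not called belong to anaphase promotion. Pttg1, which encodes securin, was at 16.1 and 15.8 FPKM against 26.7 and 19.3 FPKM, and Fzr1, an activator of the anaphase-promoting complex, was at 24.7 and 28.7 FPKM against 29.3 and 38.9 FPKM.

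Top2a, the topoisomerase that untangles sister chromatids, was measured at 250.4 and 272 FPKM in the injury-activated libraries and 3.67 and 1.26 FPKM in the PBS-perfused libraries. It rose by 6.33 ± 0.39 on the log2 scale (adjusted p = 1.4e-06). The unperfused libraries, at 7.88 and 3.53 FPKM, lay far nearer to the PBS-perfused than to the injury-activated level. Bub1b, a kinase of the spindle checkpoint, went from 1.95 and 0.742 FPKM to 168 and 184 FPKM and rose by 6.29 ± 0.28 on the log2 scale (adjusted p = 4.6e-07). Anln, an actin-binding protein of the cleavage furrow, stood at 103 and 99.5 FPKM against 0.990 and 0.306 FPKM. The kinesin Kif20a, needed for cytokinesis, rose by 5.81 ± 0.26 on the log2 scale (adjusted p = 4.6e-07). Mki67, the proliferation antigen Ki-67, was at 35.1 and 40.0 FPKM against 2.22 and 0.939 FPKM, a 23.8-fold difference of the means. None of these genes overlapped between the groups, which for Top2a, Bub1b and Anln was a condition of their place among the largest rises. Overlap was not counted over all genes, so this is a description.

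DNA replication genes behaved likewise. Of 42 members, 41 rose and 1 was not called, with a median of 3.27. All 23 genes of the replication fork rose (median 3.18), and 18 of 19 genes of origin licensing and firing rose (median 3.67). The exception was the licensing factor gene Cdt1, at 10.1 and 9.16 FPKM in injury-activated and 7.22 and 12.2 FPKM in PBS-perfused cells. Its partner in loading the helicase, Cdc6, was at 47.9 and 48.3 FPKM against 0.408 and 0.365 FPKM and rose by 5.15 ± 0.20 on the log2 scale (adjusted p = 3.1e-07). Gmnn, whose product geminin inhibits Cdt1, was at 48.9 and 47.9 FPKM against 0.850 and 0.157 FPKM. Mcm5, a subunit of the helicase, rose by 5.13 ± 0.44 on the log2 scale (adjusted p = 9e-06), and Pole, the catalytic subunit of the leading-strand polymerase, rose by 5.67 ± 0.30 on the log2 scale (adjusted p = 8.4e-07). The sliding clamp gene Pcna had a smaller difference, of 1.40 ± 0.23, and was named after its values were seen.

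Promoters of some of these genes are shown because the genes moved together. Those shown were picked from the called members with the largest changes that held a match, so they do not stand for the whole list. They are windows around the matches in promoters from RefSeq on GRCm38.p6, each taken from 250 bases before to 50 bases after the gene's start, and are printed 5′ to 3′ on the gene's strand, in lower case with the matches in capitals. Mitotic promoters were searched for the cell cycle genes homology region, TTTGAA, and for CCAAT. Replication promoters were searched for 4 forms of the E2F site, TTTCCCGC, TTTCGCGC, TTTGCCGC and TTTGGCGC. Both strands were read, so a match on the other strand appears as its reverse complement, such as ATTGG for CCAAT.
Top2a (chr11:99024187-99024436, minus strand): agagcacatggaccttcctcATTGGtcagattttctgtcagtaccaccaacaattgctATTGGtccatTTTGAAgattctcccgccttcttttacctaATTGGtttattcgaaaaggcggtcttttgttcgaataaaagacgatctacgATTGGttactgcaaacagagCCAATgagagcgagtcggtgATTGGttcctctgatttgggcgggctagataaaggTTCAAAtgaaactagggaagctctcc
Cdk1 (chr10:69352902-69353140, minus strand): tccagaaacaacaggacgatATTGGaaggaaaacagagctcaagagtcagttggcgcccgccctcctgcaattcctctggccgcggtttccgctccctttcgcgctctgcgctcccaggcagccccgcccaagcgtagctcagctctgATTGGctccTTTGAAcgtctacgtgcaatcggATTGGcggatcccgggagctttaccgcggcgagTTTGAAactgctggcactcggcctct
Ccnb1 (chr13:100786529-100786605, minus strand): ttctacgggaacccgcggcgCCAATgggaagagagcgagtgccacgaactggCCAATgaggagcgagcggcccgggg
Cdc6 (chr11:98907993-98908040, plus strand): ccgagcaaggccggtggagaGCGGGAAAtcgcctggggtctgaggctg
Mcm5 (chr8:75109336-75109387, plus strand): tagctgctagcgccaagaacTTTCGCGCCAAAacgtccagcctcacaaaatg

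The Top2a window held 6 CCAAT matches and 2 TTTGAA matches, and that of Cdk1 held 3 and 2. Ccnb1 had 2 CCAAT matches and no TTTGAA in its window. The 2 matches of Mcm5 overlap. TTTGAA was found in 39 of the 57 promoters matched to mitosis genes (68.4%), against 17.9% of all 32851 promoters in the table and 12.2% of the promoters of member genes. CCAAT was found in 75.4% of them, against 37.4% of all promoters and 37.7% of member promoters. An E2F form was found in 14 of 39 promoters of replication genes (35.9%), against 2.26% and 4.13%. For the list of cyclins and their regulators the shares were 21.4% for TTTGAA and 53.6% for CCAAT. Promoters were found for 52 of 57 mitosis genes, 33 of 42 replication genes and 23 of 34 cyclin-list genes, and a letter match is a description, not a site.

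Cyclins and their regulators were mixed. Of 34 members, 21 rose, 8 fell and 5 were not called. Ccnb1, the cyclin of mitotic entry, was at 245 and 254 FPKM in injury-activated and 1.66 and 0.932 FPKM in PBS-perfused cells and rose by 6.79 ± 0.26 on the log2 scale (adjusted p = 3.1e-07), the largest rise in the list. Its kinase Cdk1 rose by 5.64 ± 0.27 on the log2 scale (adjusted p = 4.9e-07). The S-phase cyclin gene Ccne2 was at 71.7 and 65.6 FPKM against 0.860 and 0.755 FPKM. E2f8, a repressor of the E2F family that acts late in S phase, rose by 5.51 ± 0.19 on the log2 scale (adjusted p = 2.7e-07). Ccna2 went from 2.09 and 1.62 FPKM to 17.2 and 15.8 FPKM, a smaller change of 2.62 ± 0.22. Ccnd1, the cyclin that couples growth factor signals to the cycle, was at 38.2 and 37.8 FPKM against 7.92 and 13.8 FPKM and rose by 1.76 ± 0.33 on the log2 scale (adjusted p = 0.00114). In that gene the unperfused libraries, at 21.8 and 20.5 FPKM, lay between the groups. The uninjured PFA-perfused libraries, at 58.5 and 30.2 FPKM, lay on either side of the injury-activated level.

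Of 2 inhibitors of cyclin-dependent kinases, Cdkn1a fell and Cdkn1b was not called. Cdkn1a, encoding p21 and a target of p53, was at 162 and 153 FPKM in the injury-activated libraries and at 878 and 496 FPKM in the PBS-perfused libraries. It fell by 2.06 ± 0.35 on the log2 scale (adjusted p = 0.00057). The lowest level of Cdkn1a in the series, 21.2 and 36.6 FPKM, was in the PFA-perfused libraries. Cdkn1b, encoding p27, was at 3.26 and 3.97 FPKM against 1.88 and 3.36 FPKM, where the groups overlapped (log2 difference 0.38 ± 0.36, adjusted p = 0.366). Unperfused cells had 57.1 and 127 FPKM of Cdkn1b, above the 6 other libraries.

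Supplies for DNA synthesis rose with the replication genes. Of 25 genes of nucleotide synthesis, 23 rose, 1 fell and 1 was not called, with a median of 2.92. Rrm2, the regulated subunit of ribonucleotide reductase, was at 732 and 738 FPKM against 30.2 and 4.15 FPKM, a wide gap between the PBS-perfused libraries. It rose by 5.86 ± 0.65 on the log2 scale (adjusted p = 4.1e-05). Tk1, thymidine kinase, rose by 5.30 ± 0.20 on the log2 scale (adjusted p = 3.1e-07), and the purine synthesis gene Atic rose by 4.60 ± 0.26 on the log2 scale (adjusted p = 1e-06). The gene that fell was Impdh1 (log2 difference -1.96 ± 0.34), and Prps1 was not called. Both were named after their values were seen, like the other exceptions given for the lists.

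Replication histone genes were largely below measurement. Only 10 of 31 were members, of which 6 rose and 1, Hist1h4h, fell. The linker histone gene Hist1h1b was at 35.4 and 60.7 FPKM against 0.469 and 0.827 FPKM, and Hist1h4d was at 63.1 and 94.6 FPKM against 4.89 and 9.39 FPKM. These messages lack a poly(A) tail and come from near-identical gene copies, so their values in a poly(A) library are uncertain. Among 18 members for chromatin and DNA methylation, 9 rose and 4 fell, beside 34.4% and 38.8% of all tested genes. The architectural factor gene Hmga2 was at 45.4 and 42.7 FPKM in injury-activated cells and at 0.0169 FPKM or less in the PBS-perfused libraries. Uhrf1, which guides maintenance methylation, rose by 5.92 ± 0.20 on the log2 scale (adjusted p = 2.7e-07), Dnmt1, the maintenance methyltransferase, rose by 4.78 ± 0.23 on the log2 scale (adjusted p = 5.1e-07), and the heterochromatin protein gene Cbx5 rose by 3.63 ± 0.21 on the log2 scale (adjusted p = 1.1e-06). The 4 genes that fell were Dnmt3a, Tet2, Kdm6b and H2afx. Dek, a chromatin factor of this list, was at 380.0 and 418 FPKM against 801 and 490.5 FPKM and was not called.

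Genes for making protein rose broadly and by moderate amounts. Cytosolic ribosomal protein genes numbered 78, of which 49 rose, 1 fell and 28 were not called, with a median of 1.17. Their summed share of all FPKM was 13.7% and 14.5% in injury-activated cells, against 5.63% and 8.87% in the PBS-perfused libraries. It was 5.8% and 3.6% in unperfused cells and 12.8% and 13.9% in PFA-perfused cells, the latter near the injury-activated share. The count of 49 depended on the libraries. It was 28 with the injury-activated libraries taken as 1, 27 without PBS-perfused library 1, and 32 and 26 without injury-activated library 1 and 2. Rpl41 was at 985 and 1084 FPKM against 72.5 and 120.2 FPKM and rose by 3.45 ± 0.46 on the log2 scale (adjusted p = 0.00013). Rpsa rose by 2.63 ± 0.35 on the log2 scale (adjusted p = 0.00013) and Rpl29 rose by 2.60 ± 0.37 on the log2 scale (adjusted p = 0.0002). Rps27 went the other way, with 99.5 and 91.9 FPKM against 788 and 1295 FPKM. It was lower still in unperfused cells, at 34.7 and 20.3 FPKM, and higher in PFA-perfused cells, at 1783 and 1976 FPKM. Ribosomal protein genes have many processed copies in the genome, so the split of reads among them is uncertain.

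Ribosome biogenesis was mixed, with 15 of 30 genes higher and 7 lower (median 0.82), beside 34.4% and 38.8% of all tested genes. Npm1, nucleophosmin, was at 6026 and 6199 FPKM against 519 and 716 FPKM and rose by 3.32 ± 0.43 on the log2 scale (adjusted p = 9.9e-05). The largest subunit of RNA polymerase I, Polr1a, rose by 2.72 ± 0.29 on the log2 scale (adjusted p = 3.4e-05), and the small-subunit processome gene Utp20 rose by 2.69 ± 0.22 on the log2 scale (adjusted p = 7.1e-06). Rrs1, a regulator of large-subunit assembly, instead fell by 4.94 ± 0.24 on the log2 scale (adjusted p = 5.3e-07). Of 20 aminoacyl-tRNA synthetase genes, which charge tRNA with amino acids, 11 rose and 2, Gars and Cars, fell. The falls were 1 with either injury-activated library left out. Wars rose by 2.87 ± 0.31 on the log2 scale (adjusted p = 3.8e-05), Kars rose by 2.44 ± 0.29 on the log2 scale (adjusted p = 6.7e-05), and Farsb and Qars rose by 2.07 and 1.99.

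Mitochondrial genes encoded in the nucleus rose as well. Of 76 mitochondrial ribosomal protein genes, 58 rose and 4 fell, with a median of 1.65. Mrpl18 was at 273 and 292 FPKM against 7.77 and 8.90 FPKM and rose by 4.93 ± 0.20 on the log2 scale (adjusted p = 3.6e-07). Mrpl34, Mrpl42 and Mrpl55 rose by 4.38, 3.72 and 3.57. The 4 that fell were Mrps6, Mrps24, Mrps26 and Mrps30. Mrps30 was at 3.57 and 3.87 FPKM against 67.0 and 30.8 FPKM, and unperfused cells had 3.50 and 2.87 FPKM, close to injury-activated cells. Of 52 genes of oxidative phosphorylation, 42 rose, none fell and 10 were not called. The group medians were 1.45 for complex I, 1.93 for complexes II and III, 0.82 for complex IV and 1.61 for ATP synthase. Sdhd, a membrane anchor of succinate dehydrogenase, was at 96.0 and 94.7 FPKM against 11.7 and 7.66 FPKM and rose by 3.20 ± 0.28 on the log2 scale (adjusted p = 1.1e-05). Ndufa9 of complex I rose by 2.97 ± 0.35 on the log2 scale (adjusted p = 5.6e-05), and Atp5g2 and Atp5o of ATP synthase rose by 2.87 and 2.72.

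Most glycolysis genes rose. Of 23 members, 14 rose, 4 fell and 5 were not called. Eno3, the enolase typical of muscle, was at 1443 and 1452 FPKM in injury-activated and 5.23 and 7.32 FPKM in PBS-perfused cells. It rose by 7.65 ± 0.27 on the log2 scale (adjusted p = 2.7e-07), the largest rise of any named gene here. Eno1, the widely expressed enolase, was at 3607 and 3639.5 FPKM against 175 and 133 FPKM. Pgk1 rose by 3.85 ± 0.33 on the log2 scale (adjusted p = 9.1e-06). The 4 genes that fell were the glucose transporter gene Slc2a1, the regulatory enzyme gene Pfkfb4 and the monocarboxylate carriers Slc16a1 and Slc16a3. Slc16a3, which exports lactate, was at 0.743 and 0.420 FPKM against 22.9 and 22.5 FPKM. Together the 26 glycolysis genes in the table held 2.74% and 2.76% of all FPKM in injury-activated cells and 0.408% and 0.428% in PBS-perfused cells.

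Proteasome genes rose in 24 of 31 cases and fell in 2, with a median of 1.54. Psmd14, the deubiquitinase of the regulatory particle, rose by 2.26 ± 0.28 on the log2 scale (adjusted p = 7.9e-05), and Psma5 of the core rose by 2.19 ± 0.30 on the log2 scale (adjusted p = 0.00015). The 2 exceptions were Psmb4, at 35.7 and 36.3 FPKM against 201 and 197 FPKM, and Psmd3, at 9.00 and 8.44 FPKM against 43.5 and 56.8 FPKM. For both, unperfused cells were near the injury-activated level, with 42.6 and 38.1 FPKM of Psmb4 and 8.93 and 7.66 FPKM of Psmd3. In cholesterol synthesis and its control, 13 of 26 genes rose and 2, Tm7sf2 and Srebf1, fell, beside 34.4% and 38.8% of all tested genes. The falls were 1 with any 1 injury-activated or unperfused library left out. The desaturase gene Scd2 rose by 4.20 ± 0.29 on the log2 scale (adjusted p = 2.7e-06). Dhcr7, the last enzyme of the pathway, rose by 2.63 ± 0.33 on the log2 scale (adjusted p = 9e-05), and Lss and Nsdhl rose by 2.58 and 2.46.

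**Figure D2:**
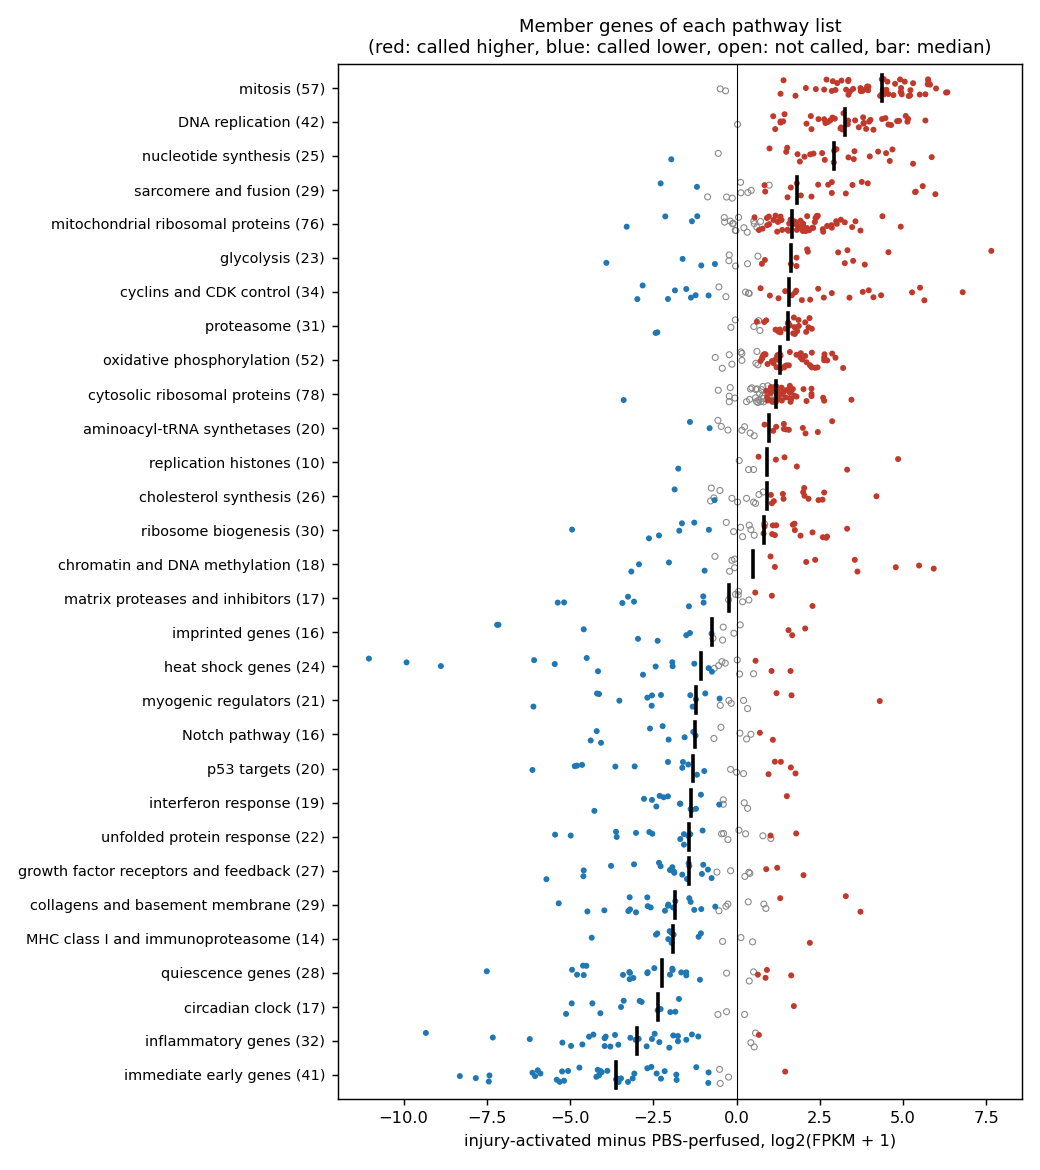
Log2 difference (x axis, injury-activated minus PBS-perfused, on log2(FPKM + 1)) of each member gene in 30 pathway lists, with the number of members in brackets and a bar at each median. Mitosis (median 4.36) and DNA replication (3.27) are at the top and immediate early genes (-3.62) at the bottom, and most lists near the middle hold genes called in both directions.

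The myogenic regulators as a list were more often lower, with 13 of 21 members lower, 3 higher and 5 not called. Pax7 was at 4.59 and 4.40 FPKM in injury-activated cells and at 48.3 and 79.6 FPKM in PBS-perfused cells. It fell by 3.52 ± 0.31 on the log2 scale (adjusted p = 1.1e-05). Unperfused cells had 19.8 and 20.4 FPKM and PFA-perfused cells 328 and 567 FPKM, so the 4 groups did not overlap and the injury-activated libraries were the lowest. Myod1 was at 42.8 and 40.7 FPKM against 703 and 794 FPKM and fell by 4.13 ± 0.26 on the log2 scale (adjusted p = 1.6e-06). It too was lowest after injury, below the 150.1 and 150.4 FPKM of PFA-perfused cells. Msc, a repressor of myogenic transcription, fell by 6.10 ± 0.42 on the log2 scale (adjusted p = 2.8e-06), and Id1, an inhibitor of basic helix-loop-helix factors, fell by 4.19 ± 0.38 on the log2 scale (adjusted p = 1.2e-05).

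Myf5, unlike Pax7 and Myod1, was not called. Its level was 82.8 and 80.9 FPKM in injury-activated and 142 and 93.1 FPKM in PBS-perfused cells, without overlap but with a log2 difference of -0.49 ± 0.38 and an adjusted p of 0.267. In unperfused cells it was 1261 and 2598 FPKM. Myog, the factor of terminal differentiation, was at 76.9 and 67.2 FPKM after injury, and its PBS-perfused libraries stood apart at 0.595 and 7.53 FPKM. It rose by 4.30 ± 0.75 on the log2 scale (adjusted p = 0.0007). PFA-perfused library 2, at 61.0 FPKM, came close to the injury-activated level. The other genes that rose in this list were Six4 and Tcf12.

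Contractile and fusion genes were more often higher. Of 29 members, 19 rose, 2 fell and 8 were not called (median 1.81). Tmem8c, which encodes the fusion protein myomaker, was at 147 and 120.0 FPKM against 0.414 and 6.33 FPKM, with a wide gap between the PBS-perfused libraries, as for Myog. It rose by 5.38 ± 0.76 on the log2 scale (adjusted p = 0.00019). Chrnd and Chrng, the delta and gamma subunits of the muscle acetylcholine receptor, rose by 5.97 ± 0.30 and 5.59 ± 0.52. Chrnd was at 105 and 97.0 FPKM against 0.697 and 0.545 FPKM. Myof, a ferlin of myoblast fusion, rose by 5.36 ± 0.29 on the log2 scale (adjusted p = 8.4e-07). The genes that fell were Tnnt1 and Des. Desmin, an intermediate filament of muscle and of mural cells, was at 44.5 and 36.3 FPKM against 139 and 285 FPKM.

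Genes tied to the quiescent state were mostly lower. Of 28 members, 21 fell, 4 rose (among them Sdc3, Foxo4 and Itga7) and 3 were not called, with a median of -2.23. The rises were 2 with either injury-activated library left out. Calcr, the calcitonin receptor of quiescent satellite cells, was at 0.682 and 0.548 FPKM against 53.1 and 44.1 FPKM and fell by 4.94 ± 0.34 on the log2 scale (adjusted p = 2.5e-06). Chrdl2, a secreted chordin-like protein, was at 0.261 and 0.125 FPKM against 308 and 150.0 FPKM. Btg2, an antiproliferative factor, fell by 4.79 ± 0.40 on the log2 scale (adjusted p = 7.4e-06), and Gpx3, a secreted glutathione peroxidase, fell by 4.61 ± 0.44 on the log2 scale (adjusted p = 1.8e-05). Calcr and Chrdl2 were lowest after injury, with 19.9 and 27.2 FPKM of Calcr and 55.9 and 42.9 FPKM of Chrdl2 in unperfused cells. Btg2 was likewise lowest after injury, with 334 and 633 FPKM in unperfused and 52.2 and 23.9 FPKM in PFA-perfused cells.

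Notch signalling keeps satellite cells quiescent through Hes and Hey repressors. Of 16 members, 4 reached 1 FPKM only in the PBS-perfused libraries and so entered through the group where they were high. The median was -1.26 over members and -0.95 over all 20 listed genes. Among the members, 9 fell, 2 rose (Rbpj and Snw1, both transcriptional partners of the Notch receptor) and 5 were not called. The rises were 1 with either injury-activated library left out. Hes1 was at 0.559 and 0.578 FPKM in injury-activated and 29.3 and 34.3 FPKM in PBS-perfused cells and fell by 4.38 ± 0.21 on the log2 scale (adjusted p = 5.3e-07). Unperfused cells had 0.341 and 0.666 FPKM of Hes1, and the injury-activated minus unperfused difference was 0.07 (adjusted p = 0.788). Hey1 was at 1.58 and 1.12 FPKM against 43.2 and 34.2 FPKM, with 5.50 and 7.77 FPKM in unperfused cells. Heyl fell by 2.60 ± 0.26 on the log2 scale (adjusted p = 2.4e-05) and the receptor gene Notch3 fell by 4.20 ± 0.34 on the log2 scale (adjusted p = 7e-06).

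Receptors of growth factors and their feedback inhibitors were more often lower, with 19 of 27 members lower, 3 higher and 5 not called. Spry1, a feedback inhibitor of receptor tyrosine kinases that marks quiescent satellite cells, was at 1.07 and 1.11 FPKM against 58.0 and 41.8 FPKM. It fell by 4.59 ± 0.27 on the log2 scale (adjusted p = 1.2e-06). Errfi1, an inhibitor of the EGF receptor, fell by 5.71 ± 0.47 on the log2 scale (adjusted p = 7e-06), Fgfr1 fell by 4.60 ± 0.30 on the log2 scale (adjusted p = 2.1e-06) and the oncostatin M receptor gene Osmr fell by 3.77 ± 0.34 on the log2 scale (adjusted p = 1.2e-05). The 3 receptor genes that rose were Met, Erbb3 and Pdgfra. Met, the receptor of hepatocyte growth factor, was at 167 and 145 FPKM against 84.0 and 83.1 FPKM.

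Collagen and basement membrane genes fell more often than they rose. In the list of collagens and basement membrane, 20 of 29 members fell, 3 rose and 6 were not called (median -1.84). Col4a1, a chain of the basement membrane collagen, was at 0.985 and 0.860 FPKM against 87.8 and 67.1 FPKM and fell by 5.34 ± 0.23 on the log2 scale (adjusted p = 4.6e-07). Its partner Col4a2 fell by 4.48 ± 0.22 on the log2 scale (adjusted p = 6e-07). The laminin beta chains went in opposite directions. Lamb1 was at 379 and 380.1 FPKM against 32.8 and 23.7 FPKM and rose by 3.72 ± 0.25 on the log2 scale (adjusted p = 2.4e-06), whereas Lamb2 was at 11.6 and 11.9 FPKM against 209 and 189.8 FPKM and fell by 3.97 ± 0.21 on the log2 scale (adjusted p = 8.8e-07). The other rises were Fn1 (fibronectin) and Tnc (tenascin C), and the 3 rises were 5 without PBS-perfused library 2. Tnc was at 127 and 173 FPKM against 16.4 and 12.6 FPKM, with 131 and 41.4 FPKM in unperfused and 0.198 and 1.04 FPKM in PFA-perfused cells. Of 17 matrix proteases and inhibitors, 8 fell and 3 rose, beside 38.8% and 34.4% of all tested genes. Their median of -0.24 became 0.097 with trimmed mean scaling. The rises were 1 with either injury-activated library left out. Mmp2 fell by 5.37 ± 0.23 on the log2 scale (adjusted p = 4.6e-07), Adamts1 fell by 5.18 ± 0.30 on the log2 scale (adjusted p = 1.1e-06), and Mmp14 and Adamts5 had log2 differences of -3.43 and -3.26. The inhibitor gene Timp1 was among the rises, with 33.3 and 31.8 FPKM against 4.73 and 7.36 FPKM.

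**Figure D3:**
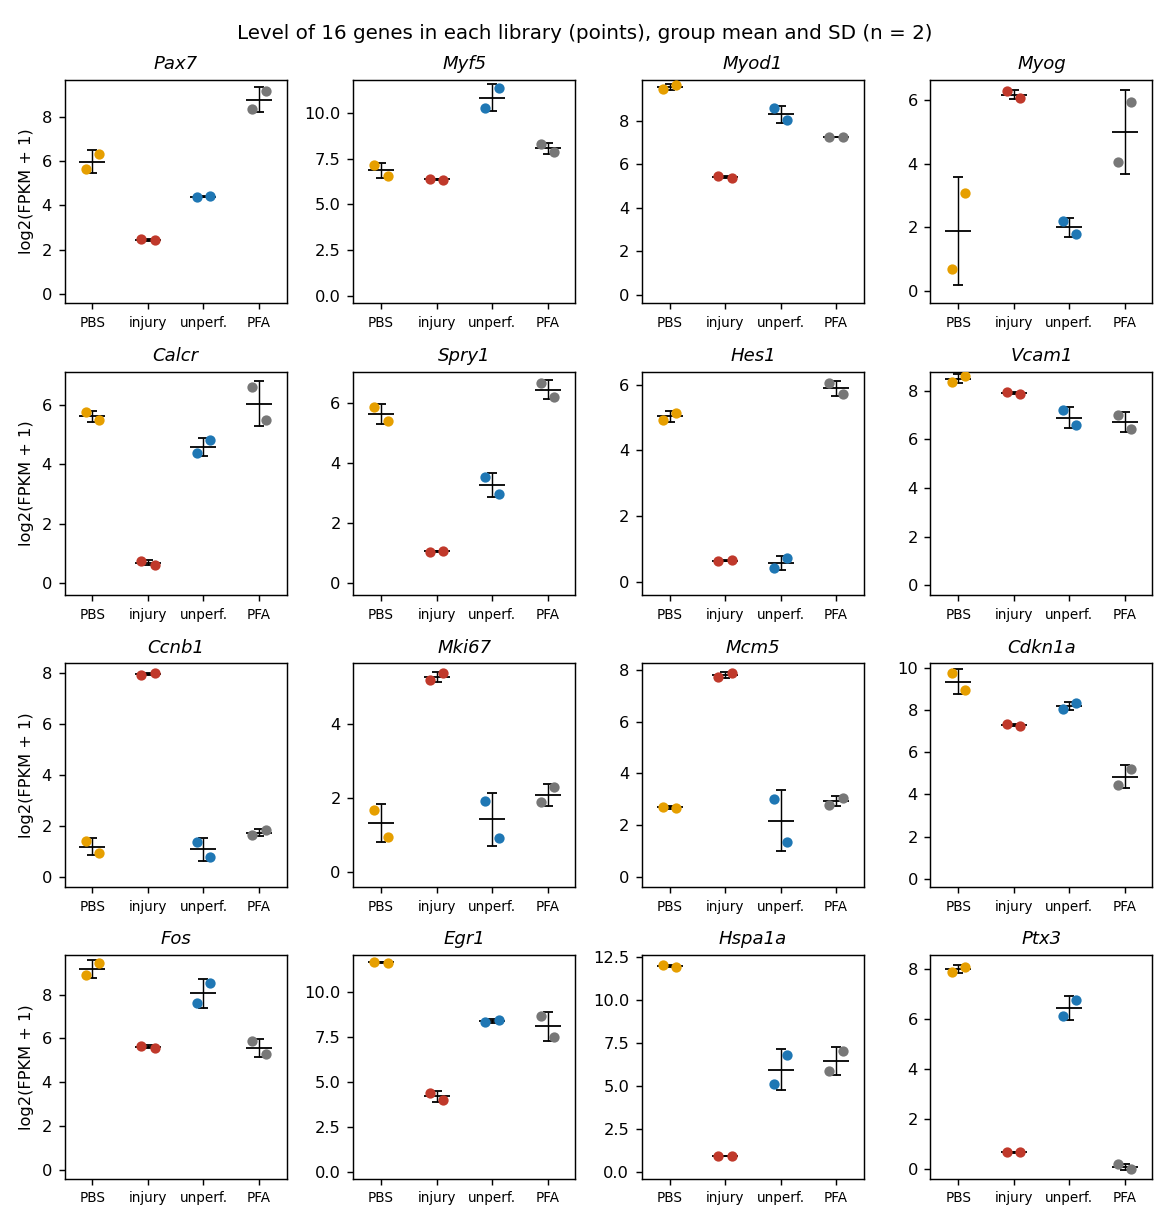
Level of 16 genes as log2(FPKM + 1) (y axis) in each library (points) of the PBS-perfused, injury-activated, unperfused and PFA-perfused groups, with the mean and SD of each pair. The y axes differ between panels. Ccnb1, Mki67 and Mcm5 are high only in the injury-activated libraries, Pax7, Calcr and Spry1 are lowest there, and for Hes1 the unperfused and injury-activated libraries overlap.

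Immediate early genes respond to a stimulus without new protein synthesis. They were the list with the lowest median (-3.62). Of 41 members, 37 fell, 1 rose and 3 (Srf, Dusp6 and Sgk1) were not called. All 9 genes of the AP-1 factors fell, between -3.07 and -8.31. Junb was at 1.90 and 1.67 FPKM in injury-activated and 740.4 and 1054 FPKM in PBS-perfused cells and fell by 8.31 ± 0.23 on the log2 scale (adjusted p = 1.8e-07). Fos was at 49.7 and 46.6 FPKM against 469 and 698 FPKM, Jun at 18.7 and 20.4 FPKM against 573 and 1163 FPKM and Atf3 at 4.11 and 5.01 FPKM against 155 and 257 FPKM. The groups did not overlap for any of these 4 genes, which for Junb was a condition of its place among the largest falls. Overlap was not counted over all genes, so this too is a description. Egr1, a zinc finger factor, was at 20.0 and 14.7 FPKM against 3170.2 and 3144 FPKM and fell by 7.44 ± 0.36 on the log2 scale (adjusted p = 5.6e-07). Ier2 fell by 7.83 ± 0.28 on the log2 scale (adjusted p = 2.7e-07), and Dusp1, a phosphatase that ends MAP kinase signals, was at 4.66 and 3.74 FPKM against 1419.6 and 552 FPKM. The gene that rose was Klf10, at 111 and 103 FPKM against 43.0 and 33.8 FPKM.

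The remaining libraries place these values. Fos was at 192 and 369 FPKM in unperfused and 57.3 and 38.2 FPKM in PFA-perfused cells, so its injury-activated level overlapped that of fixed cells and its PBS-perfused level was above all other libraries. Egr1 was at 316 and 343 FPKM in unperfused and 393 and 181 FPKM in PFA-perfused cells, both above injury-activated cells. Atf3 was lowest in PFA-perfused cells, at 1.24 and 0.523 FPKM. The list held 0.205% and 0.221% of all FPKM after injury, 2.64% and 2.76% after PBS perfusion, 1.16% and 1.59% without perfusion and 0.199% and 0.288% after fixation.

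The heat shock genes Hspa1a and Hspb1 had the 2 largest differences of all members. Of 24 members, 14 fell, 3 rose and 7 were not called, with a median of -1.06, so the list was more mixed than the immediate early genes. Hspa1a, an inducible Hsp70 gene, was at 0.900 FPKM in both injury-activated libraries and at 4151 and 3876 FPKM in PBS-perfused cells. It fell by 11.04 ± 0.52 on the log2 scale (adjusted p = 4.9e-07). Hspa1b, a near-identical copy whose reads cannot be cleanly separated from those of Hspa1a, was at 0.506 and 0.652 FPKM against 710.2 and 778 FPKM. Hspb1 was at 6.92 and 7.08 FPKM against 6415 and 9219.7 FPKM and fell by 9.91 ± 0.36 on the log2 scale (adjusted p = 2.8e-07). Dnajb1, a co-chaperone of Hsp70, fell by 6.08 ± 0.35 on the log2 scale (adjusted p = 1.1e-06). The 3 rises were the mitochondrial chaperone gene Hspd1, the co-chaperone gene Stip1 and Hspa4l. Hspd1 was at 3586 and 3752 FPKM against 1069 and 1336 FPKM. Unperfused cells had 33.5 and 109 FPKM of Hspa1a and 40.3 and 80.7 FPKM of Hspb1, far below PBS-perfused cells for both.

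Inflammatory genes fell in 28 of 32 cases, with 1 rise (Ptgs2, with a log2 difference of 0.67 ± 0.23) and 3 not called, at a median of -2.98. The rises were 0 without injury-activated library 2 and 2 without PBS-perfused library 2. Cebpd, a C/EBP transcription factor of acute responses, was at 0.0860 and 0.131 FPKM against 743 and 686 FPKM. It fell by 9.33 ± 0.26 on the log2 scale (adjusted p = 1.8e-07). Ptx3, a secreted pentraxin, was at 0.571 and 0.577 FPKM against 234 and 269 FPKM, with 67.5 and 107 FPKM in unperfused cells and 0.128 FPKM or less in PFA-perfused cells. Cebpb was at 0.0303 and 0.0967 FPKM against 37.7 and 158 FPKM, and Relb, an NF-kappa-B subunit, fell by 5.23 ± 0.28 on the log2 scale (adjusted p = 8.8e-07). The chemokine gene Cxcl1, among the most abundant messages of PBS-perfused cells, was at 278 and 251 FPKM against 2377 and 7159 FPKM. The heat shock and inflammatory lists took 4.89% to 5.19% and 1.18% to 2.25% of all FPKM in PBS-perfused cells, the highest shares of the 4 groups for both lists.

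Promoter windows of members of the lists that fell are shown for the same reason as above, with matches in capitals. They were likewise picked for holding a match. Junb, Ier2 and Egr1 fell further than Dusp1 and are not shown. Immediate early promoters were searched for the cyclic AMP response element, TGACGTCA, and for the CArG box. Heat shock promoters were searched for GAANNTTC, a pair of inverted heat shock units in which N is any base, and inflammatory promoters for the kappa-B site.
Dusp1 (chr17:26508588-26508635, minus strand): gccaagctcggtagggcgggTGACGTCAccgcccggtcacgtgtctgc
Dusp5 (chr19:53529043-53529102, plus strand): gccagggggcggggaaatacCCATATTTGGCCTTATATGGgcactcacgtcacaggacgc
Hspa1a (chr17:34972233-34972280, minus strand): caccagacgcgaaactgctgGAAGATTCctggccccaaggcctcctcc
Hspb1 (chr5:135887782-135887849, plus strand): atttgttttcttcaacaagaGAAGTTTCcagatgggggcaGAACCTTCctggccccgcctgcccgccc
Ptx3 (chr3:66219866-66219916, plus strand): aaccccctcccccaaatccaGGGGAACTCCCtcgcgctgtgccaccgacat

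Dusp1 shows 1 cyclic AMP response element, and Dusp5 shows 2 CArG boxes that lie next to each other. Hspa1a has 1 heat shock match and Hspb1 has 2. The 2 kappa-B matches of Ptx3 overlap. GAANNTTC was found in 13 of 28 promoters of heat shock genes (46.4%), against 7.86% of all promoters and 5.70% of member promoters. The kappa-B site was found in 16 of 29 promoters of inflammatory genes (55.2%), against 4.51% and 5.15%. The CArG box was found in 7 of 45 promoters of immediate early genes (15.6%), against 1.63% and 1.34%. The cyclic AMP response element was found in 2 of 45 (4.44%), against 1.79% of all and 3.16% of member promoters, so its share was near that of member genes. Promoters were found for 31 of 41 immediate early, 19 of 24 heat shock and 25 of 32 inflammatory genes.

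The unfolded protein response, which restores folding in the endoplasmic reticulum, had 13 of 22 members lower, 2 higher and 7 not called. Dnajb9 was at 3.90 and 3.41 FPKM against 259 and 159 FPKM and fell by 5.45 ± 0.28 on the log2 scale (adjusted p = 7.3e-07). Xbp1, a transcription factor of this response, fell by 4.98 ± 0.29 on the log2 scale (adjusted p = 1.1e-06), and Herpud1, of endoplasmic reticulum degradation, fell by 3.60 ± 0.46 on the log2 scale (adjusted p = 0.0001). Dnajc3 had a log2 difference of -3.62 ± 0.36. The 2 genes that rose were the chaperone genes Calr and Pdia4. The rises were 1 with either injury-activated library left out, and 4 with trimmed mean scaling, with only the 2 groups fitted or with the replicate block. Herpud1 was at 51.0 and 52.7 FPKM after injury, 1124 and 366 FPKM after PBS perfusion and 584 and 647 FPKM in unperfused cells, where the difference from PBS-perfused cells was -0.06 (adjusted p = 0.924).

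Targets of p53 fell in 12 of 20 cases and rose in 5 (Trp53 itself, Ccng1, Bax, Pmaip1 and Zmat3). Gadd45a, a growth arrest gene that is also on the immediate early list, fell by 6.13 ± 0.23 on the log2 scale (adjusted p = 3.1e-07). Fas, the death receptor, was at 5.70 and 5.77 FPKM against 188 and 147 FPKM, and Plk3 fell by 4.86 ± 0.21 on the log2 scale (adjusted p = 4.6e-07). Of 19 interferon response members, 14 fell and 1, Ifit2, rose, and 4 reached 1 FPKM only in the PBS-perfused libraries. The median was -1.38 over members and -1.14 over all 24 listed genes. Gbp2 was at 4.08 and 3.81 FPKM against 98.6 and 90.5 FPKM and fell by 4.27 ± 0.19 on the log2 scale (adjusted p = 4.6e-07). Xaf1, Mx2 and Stat2 had log2 differences of -2.78, -2.54 and -2.41. In antigen presentation by MHC class I, 10 of 14 genes fell and 1 rose. H2-K1 was at 29.6 and 25.1 FPKM against 446 and 738 FPKM, H2-D1 fell by 2.42 ± 0.30 on the log2 scale (adjusted p = 7.9e-05) and the peptide transporter gene Tap1 fell by 2.38 ± 0.18 on the log2 scale (adjusted p = 4.8e-06). Psmb10, an immunoproteasome subunit, was the rise, at 76.2 and 77.1 FPKM against 17.7 and 14.4 FPKM. MHC class I genes are alike in sequence, so reads may be split among them.

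Clock genes fell in 13 of 17 cases, with 1 rise (Bhlhe41) and a median of -2.37. Per1 was at 0.343 and 0.405 FPKM against 37.4 and 58.1 FPKM and fell by 5.12 ± 0.41 on the log2 scale (adjusted p = 6e-06). The nuclear receptor gene Rora was at 1.89 and 2.04 FPKM against 101 and 82.0 FPKM, Nfil3 fell by 4.33 ± 0.23 on the log2 scale (adjusted p = 8.9e-07) and Cry2 fell by 4.09 ± 0.25 on the log2 scale (adjusted p = 1.3e-06). Imprinted genes were split, with 8 of 16 lower, 3 higher (H19, Grb10 and Peg10) and 5 not called. Of all tested genes, 38.8% were lower and 34.4% higher. Noncoding RNAs of the Dlk1-Dio3 region fell by differing amounts. Meg3 was at 0.0570 and 0.0410 FPKM against 105 and 222 FPKM and fell by 7.19 ± 0.37 on the log2 scale (adjusted p = 7.2e-07). Mirg was at 0.353 and 0.219 FPKM against 152 and 216 FPKM, and Rian fell by 2.96 ± 0.53 on the log2 scale (adjusted p = 0.00084). Gnas, a G protein gene of another imprinted region, fell by 4.59 ± 0.34 on the log2 scale (adjusted p = 4.2e-06). For Mirg all 6 libraries without injury lay between 135 and 216 FPKM.

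Several of the 15 largest rises and 15 largest falls belonged to no pathway list. Spp1, which encodes the secreted matrix protein osteopontin, was at 228 and 243 FPKM in injury-activated and 1.77 and 1.25 FPKM in PBS-perfused cells. It rose by 6.57 ± 0.27 on the log2 scale (adjusted p = 4e-07). Has2, a hyaluronan synthase, was at 85.9 and 73.7 FPKM against 0 and 0.428 FPKM and Tubb3, a beta-tubulin best known from neurons, at 131 and 98.3 FPKM against 0.289 and 0.497 FPKM. Gtse1, a microtubule-binding protein of late cell cycle, rose by 5.90 ± 0.20 on the log2 scale (adjusted p = 2.7e-07). The clone-named 2810417H13Rik, which encodes a PCNA-binding protein, rose by 6.19 ± 0.38 on the log2 scale (adjusted p = 1.4e-06). Slfn9, of the Schlafen family, rose by 6.20 ± 0.26 on the log2 scale (adjusted p = 4.4e-07), and D17H6S56E-5 rose by 5.90 ± 0.40 on the log2 scale (adjusted p = 2.6e-06). The symbol Mir6236 was at 436 and 488 FPKM against 0.212 and 3.48 FPKM, with 43.4 and 25.6 FPKM in unperfused cells. It names a microRNA gene of very short length, whose mature product a library of sheared cDNA does not measure.

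Among the falls, Fam132b, which encodes the hormone erythroferrone, was at 2.13 and 1.94 FPKM against 1114 and 1219 FPKM and fell by 8.59 ± 0.24 on the log2 scale (adjusted p = 1.8e-07). Ryr3, a calcium release channel, was at 0.719 and 0.349 FPKM against 373 and 459 FPKM. Its highest level, 1293 and 1479 FPKM, was in PFA-perfused cells. Medag fell by 7.17 ± 0.30 on the log2 scale (adjusted p = 4.2e-07). For Ryr3 and Medag the injury-activated libraries were the lowest of all 8.

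The label of the cells was set against marker genes of 11 cell types. The sort marker Vcam1 was at 241 and 234 FPKM after injury and 329 and 389.6 FPKM after PBS perfusion, a difference of -0.59 ± 0.30 that was not called (adjusted p = 0.102). Among 10 satellite cell markers, 6 fell, 1 (Itga7) rose and 3 were not called, and Sdc4 fell by 1.66 ± 0.40 on the log2 scale (adjusted p = 0.00416). The 10 genes summed to 1468 to 1504 FPKM after injury and 3890 to 4339 FPKM after PBS perfusion. Much of both sums came from Sdc4, at 927 and 908 FPKM after injury and 2718 and 3099 FPKM after PBS perfusion. Pecam1, the gene of CD31, was at 1.14 and 1.06 FPKM against 33.9 and 19.7 FPKM, and Ly6a, the gene of Sca-1, at 8.40 and 7.58 FPKM against 17.7 and 19.3 FPKM. Ptprc, the gene of CD45, was no member, at 0.203 and 0.250 FPKM against 0.119 and 0.0805 FPKM. All 14 endothelial markers fell, of which 8 reached 1 FPKM only in the PBS-perfused libraries, with a summed level of 14.6 to 14.9 FPKM after injury and 357 to 395 FPKM after PBS perfusion, and none was at 0. Cldn5 was at 0.393 and 0.408 FPKM against 70.7 and 49.0 FPKM and Fabp4 at 2.27 and 1.55 FPKM against 101 and 146 FPKM, with 0.552 and 0.372 FPKM of Cldn5 and 2.10 and 3.13 FPKM of Fabp4 in unperfused cells. In bulk RNA, fewer cells of a type and less RNA per cell cannot be told apart.

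Markers of blood cells went in several directions. The 18 macrophage and monocyte markers in the table summed to 86.0 to 94.3 FPKM after injury and 60.0 to 64.1 FPKM after PBS perfusion. Of these, 11 were members, and 4 of the 11 reached 1 FPKM only in the injury-activated libraries and so became members through the group where they were high. As a description, 6 rose and 2 fell, and the rises were 2 with the injury-activated libraries taken as 1 or with either of them left out. The 2 falls were 0 without PBS-perfused library 1, and 1 without PBS-perfused library 2 or injury-activated library 1. Lyz2, lysozyme, was at 42.9 and 44.0 FPKM against 13.4 and 13.3 FPKM. Cd74, the MHC class II invariant chain, was at 6.05 and 8.14 FPKM against 23.1 and 12.7 FPKM, and its call was lost without PBS-perfused library 1 or injury-activated library 1 (adjusted p = 0.055 and 0.0567). All 4 neutrophil members reached 1 FPKM only in the PBS-perfused libraries. The 8 neutrophil markers in the table summed to 0.732 to 1.03 FPKM against 19.7 to 25.9 FPKM, with S100a8 at 0.0969 and 0.00723 FPKM against 5.14 and 6.32 FPKM and S100a9 at 0.202 and 0.113 FPKM against 4.23 and 8.64 FPKM. Erythroid markers summed to 5.58 to 8.93 FPKM against 116 to 135 FPKM, and the globin genes Hba-a1 and Hbb-bs fell by 3.75 ± 0.71 on the log2 scale (adjusted p = 0.00109) and fell by 5.60 ± 0.76 on the log2 scale (adjusted p = 0.00014). The globin copies are near-identical, so reads may be split among them, and Hbb-bt and Slc4a1 were at 0 in both injury-activated libraries. Lymphocyte markers summed to at most 4.12 FPKM in these 4 libraries. Of the 11 in the table, 5 (among them Cd3d, Cd3g, Cd4 and Cd8a) were at 0 in both injury-activated libraries. Cd79a was at 0.196 and 0.0932 FPKM against 1.35 and 1.52 FPKM, and Cd79b was no member.

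Markers of other muscle-resident cells differed between the lists. Of 12 fibro-adipogenic members 9 fell, 1 (Pdgfra) rose and 2 (Dcn and Lum) were not called. The 13 genes of the list summed to 134 to 164 FPKM after injury against 743 to 798 FPKM. Dpt fell by 4.34 ± 0.54 on the log2 scale (adjusted p = 8.8e-05) and Gsn fell by 2.51 ± 0.32 on the log2 scale (adjusted p = 0.00011). PBS-perfused cells had 69.4 and 260 FPKM of Dpt. The other uninjured cells had more, with 474 and 456 FPKM in unperfused and 633 and 318 FPKM in PFA-perfused cells. Between injury-activated and unperfused cells the median of this list was 0.62, with 6 members higher and 4 lower. Of 11 mural members, 4 of which reached 1 FPKM only in the PBS-perfused libraries, 8 fell and none rose (1 rose without PBS-perfused library 2 or injury-activated library 1), and the 12 genes of the list summed to 88.0 to 106 FPKM against 386 to 583 FPKM. Much of the PBS-perfused mural sum came from Des (139 and 285 FPKM) and Notch3 (61.7 and 140 FPKM), which are also on the contractile and Notch lists. Chodl, listed as a tenocyte marker, was also abundant in the other uninjured cells. It was at 142 and 127 FPKM in unperfused and 1049 and 928 FPKM in PFA-perfused cells. Of 7 tenocyte members 2 fell, Chodl at 6.28 and 4.70 FPKM against 469 and 425 FPKM and Mkx, while Thbs4 was not called (adjusted p = 0.125). The falls were 4 without PBS-perfused library 1, and 1 gene rose with either PFA-perfused library left out. Of 9 glial markers 6 were members, and 4 of the 6 reached 1 FPKM only in the PBS-perfused libraries, so their falls, that of Mbp among them, follow from how they became members. The median over all 9 was -1.26, and 2 rose. One of these, Ncam1, is also expressed by myogenic cells and was at 134 and 123 FPKM against 23.2 and 23.7 FPKM.

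Myofibre markers rose in 8 of 9 members, all but Ckm, and in 5 with the injury-activated libraries taken as 1 or with either of them left out. The 14 genes of the list summed to 308 to 348 FPKM after injury and 55.8 to 78.7 FPKM after PBS perfusion. Acta1, skeletal alpha-actin, was at 133 and 93.9 FPKM against 9.29 and 22.5 FPKM and Tnnt3, fast troponin T, at 60.2 and 58.6 FPKM against 7.56 and 13.3 FPKM. Differentiating myoblasts also express these genes. The marker lists moved with the contractile and fusion genes (myofibre markers) and with the inflammatory and matrix genes (endothelial, fibro-adipogenic, neutrophil and mural markers), and their part in those results was not tested.

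**Figure D4:**
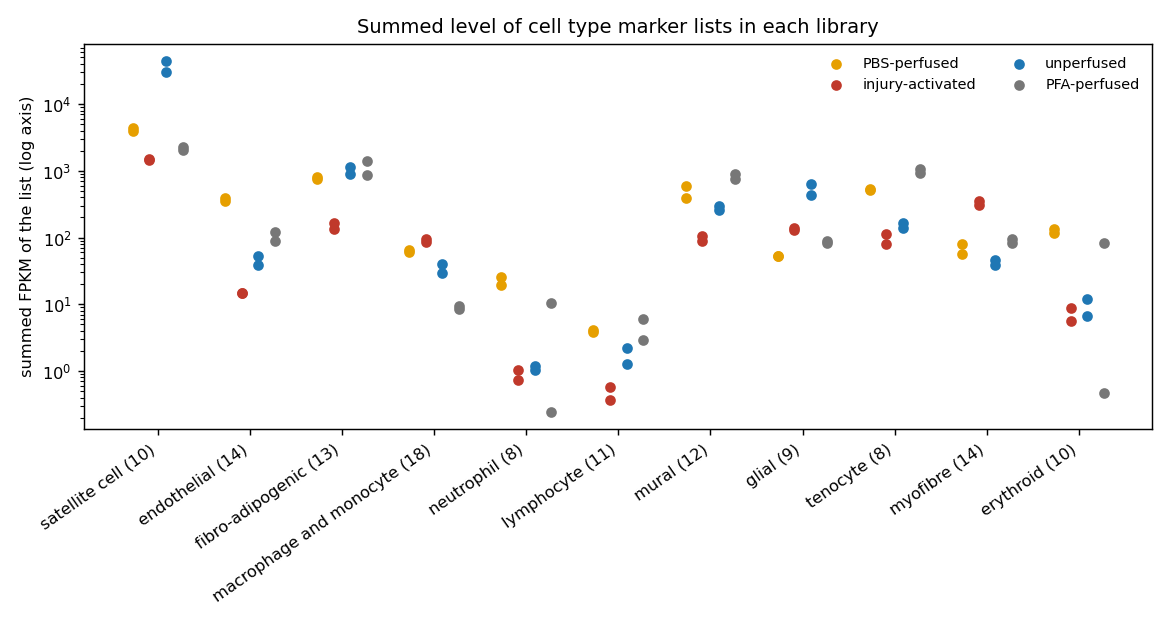
Summed FPKM (y axis, log scale) of 11 cell type marker lists in each of the 8 libraries, coloured by group, with the number of genes in the table in brackets. The endothelial sum is 14.6 to 14.9 FPKM in injury-activated cells and 357 to 395 FPKM in PBS-perfused cells, and the myofibre sum is highest in injury-activated cells, at 308 to 348 FPKM.

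The unperfused, uninjured libraries share the wild type label and the lack of perfusion with the injury-activated libraries. Unperfused minus PBS-perfused, the contrast without injury, called 49.6% of the tested genes, and injury-activated minus unperfused called 70.0%. These contrasts reuse the same libraries as the main comparison and are not independent of it, so their values are set side by side. Over all members the median was -0.41 without injury and 0.32 between injury-activated and unperfused cells. List medians in these contrasts are to be read beside those values. For mitosis the list medians were 4.36 in the main comparison, 0.07 without injury and 4.25 between injury-activated and unperfused cells. The replication medians were 3.27, -0.24 and 3.62 in the same order. Of the mitosis genes, 2 were higher and 6 lower in unperfused than in PBS-perfused cells. Of the 42 replication genes, 3 were higher and 11 lower. Over all tested genes the calls of this contrast were not split by direction. By these medians the level of unperfused cells was close to that of PBS-perfused cells in both lists, though single genes differed. Bub1b had a log2 difference of 0.39 without injury (adjusted p = 0.267). Among the cyclins, Ccnb1 was not called (-0.11, adjusted p = 0.75). Ccna2 was lower (-0.96, adjusted p = 0.00633) and Ccne2 higher (1.05, adjusted p = 0.00148) in unperfused than in PBS-perfused cells.

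Other lists were divided between the contrasts. Immediate early genes had a median of -1.57 without injury and -2.29 between injury-activated and unperfused cells, and inflammatory genes had -1.55 and -1.01. Heat shock genes had -1.54 and -0.21, and 20 of 24 of them were lower in unperfused than in PBS-perfused cells. Hspb1 differed by -7.05 without injury (adjusted p = 2.7e-06) and by -2.86 between injury-activated and unperfused cells (adjusted p = 8.5e-05). Endothelial markers had -2.65 and -0.31. Ribosomal protein, mitochondrial ribosomal protein and oxidative phosphorylation genes were lower in unperfused than in PBS-perfused cells, with medians of -1.07, -0.97 and -1.21. Against unperfused cells their rises were accordingly larger, with medians of 2.22, 2.56 and 2.55. The medians over all members, -0.41 and 0.32, lay in the same directions, and the part of scaling in these shifts was not tested. Quiescence genes had -0.28 without injury and -2.21 between injury-activated and unperfused cells. Myf5 was 1 of the genes with opposite contrasts, at 3.96 without injury (adjusted p = 4.9e-05) and -4.45 between injury-activated and unperfused cells (adjusted p = 9.3e-06).

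**Figure D5:**
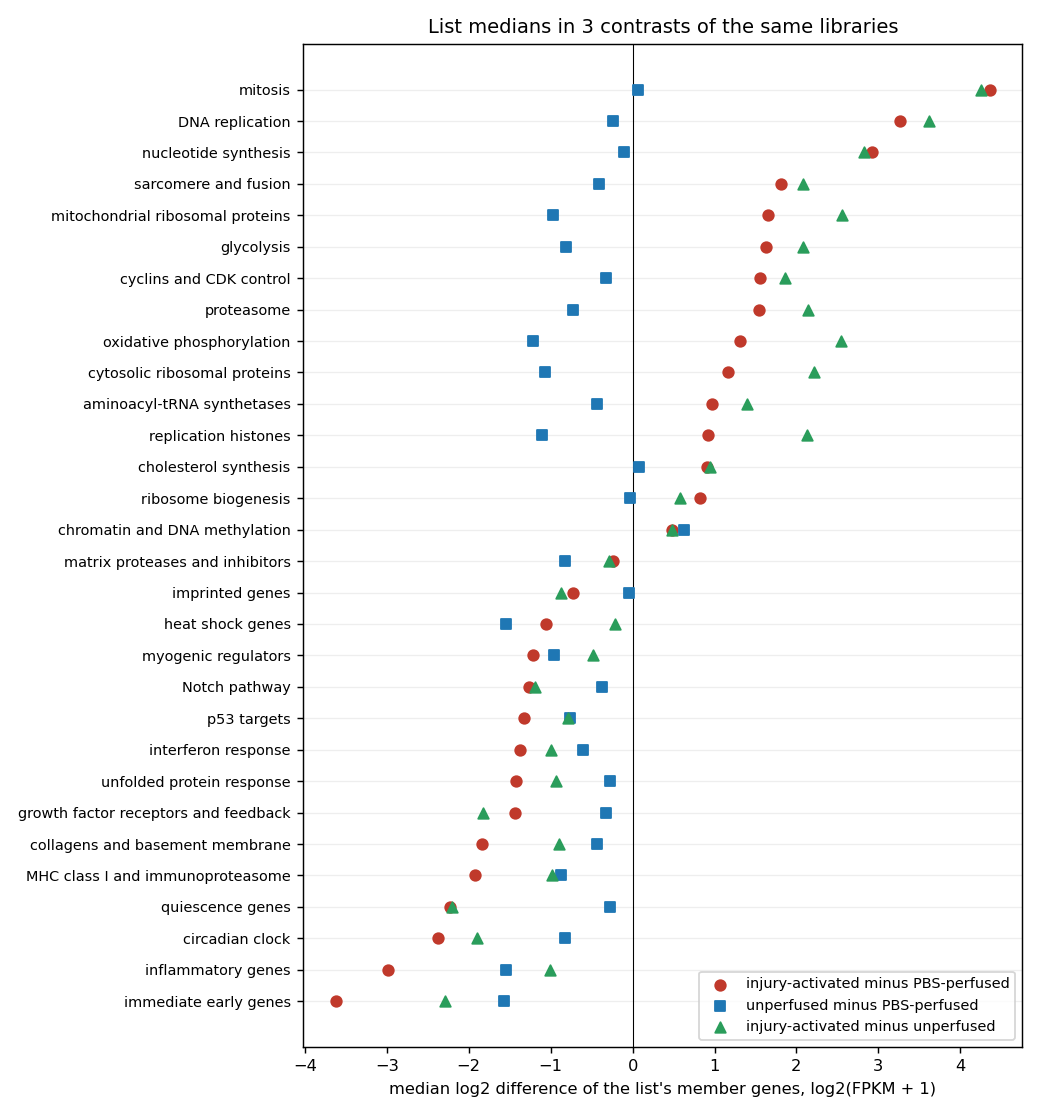
Median log2 difference (x axis, on log2(FPKM + 1)) of the members of 30 pathway lists in 3 contrasts that share libraries: injury-activated minus PBS-perfused (red circles), unperfused minus PBS-perfused (blue squares) and injury-activated minus unperfused (green triangles). For mitosis the red and green medians are 4.36 and 4.25 with the blue at 0.07, whereas for heat shock genes the blue median, -1.54, lies below the red at -1.06.

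Differences were weakly graded by transcript length. Lengths from GENCODE transcripts on GRCm38, an annotation other than the authors', were found for 10940 members, or 96.5%. Split into 4 equal bins from the shortest to the longest transcripts, the members had median log2 differences of 0.21, 0.18, 0.03 and -0.34. Across genes, which are not independent replicates, Spearman's rho was -0.06. In the longest bin 30.1% of members were higher and 44.9% lower, and in the shortest bin 40.2% and 35.9%. The part of length in the results was not tested.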

How the data were processed

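RNA was measured in 8 libraries of sorted mouse satellite cells, 2 for each of 4 groups taken from the labels. The deposited table holds a value per gene symbol and library that the authors made with STAR 2.5.3a and StringTie 1.3.3 on mm9, per the submitters' processing notes. Its header names no unit. The values were read as FPKM deposited by the authors, because they are decimals with differing totals and StringTie reports FPKM. No whole-read steps were found in the low values, so depth per library is unknown and no counting interval is given. The series names 2 sequencers without assigning them to libraries.

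Genes with at least 1 FPKM in at least 2 of 8 libraries were tested with limma 3.58.1 (R 3.4.1 is the authors', R 4.3.3 was used here) on log2(FPKM + 1), with a variance trend and 4 residual degrees of freedom. Benjamini-Hochberg adjusted p-values under 0.05, two-sided, were called over all 12515 tested genes. Errors are standard errors of the log2 difference. The fit was tested on simulated data. Summaries were made with Python 3.11.15, pandas 2.3.3 and numpy 2.4.6, and figures with matplotlib 3.10.9.

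Named genes were the 15 largest rises and 15 largest falls with separate groups and a mean of at least 10 FPKM on the higher side, up to 4 called members of each pathway list by size of difference with at least 5 FPKM, a set of anchor genes, the sort markers, and the 2 most abundant members of each cell type list. Members and lists were chosen with earlier results of these data known. List exceptions were named after their values were seen. Alternatives changed the pseudocount, the filter, the scaling, the model and the libraries. The averaging of the injury-activated libraries was chosen after seeing the data. Promoters came from RefSeq on GRCm38.p6, another build than the files', and no coordinates were converted. A few genes of these lists are not reported here.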

Additional observations from a re-analysis of the deposited data

How the results depend on the processing

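Of 21 alternatives, none moved the count of genes called between injury-activated and PBS-perfused cells (9163 of all tested) by more than 1.5 times. The count ran from 6834 with a required log2 difference beyond 1 to 10111 with no filter on low values, and from 7421 to 9261 when any 1 library was left out. It was 7436 with the injury-activated libraries averaged, an alternative chosen after seeing the data. Deviations of same-numbered injury-activated and PBS-perfused libraries correlated at -0.006. Over all pairs of groups the values ran from -0.047 to 0.117, the highest for PBS-perfused and PFA-perfused libraries. With 1 replicate difference per group, these values cannot decide whether the replicate numbers pair the samples. With the replicate number as a block 9299 genes were called. Medians changed sign in 3 lists. The tenocyte median of -0.72 became 0.290 with a filter of 5 FPKM and ran from -1.301 to 0.016 when 1 library was left out, with the positive value without PBS-perfused library 2. The median of chromatin genes, 0.48, became -0.058 with the injury-activated libraries averaged and ran from -0.028 (without injury-activated library 1) to 0.595. The median of matrix proteases, -0.24, became 0.097 with trimmed mean scaling. The cause was not tested for these. Among 166 named genes, 7 changed their call under some alternative and none changed sign. Cd74, Cd79a, Rn45s and Sdc4 lost calls, the last with no filter on low values (adjusted p = 0.0536), and Cd79a lost its call in 6 alternatives. Myf5 was called after quantile normalization (log2 difference -0.714, adjusted p = 0.0427), and Vcam1 likewise (-0.883, adjusted p = 0.00699), with Rn45s and Malat1 removed (0.0277) and with only the 2 groups fitted (0.0326). Thbs4 was called with trimmed mean scaling (1.484, adjusted p = 0.0308), with a pseudocount of 5 (0.0427) and with either PFA-perfused library left out (0.0389 and 0.0393). No depth is known, so low values, such as those near 1 FPKM, carry an unknown counting error.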
